A study of Mus musculus with 9 samples.

Results

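The genes described here encode subunits and relatives of the transcription factor AP-1 (Fosl1, Fos, Jun, Junb and Atf3), other products of immediate early genes (Egr1, Ier3 and Myc) and 2 MAP kinase phosphatases (Dusp1 and Dusp5). All 10 genes were on the array, out of 18194 genes with probe sets of their own. They were found by gene symbol, through every probe set annotated to 1 of these genes alone, which gave 12 probe sets of 45101. 11 of the 12 reached the level needed for testing. In RefSeq's annotation of the mouse genome GRCm38.p6 the AP-1 genes are Fosl1 at chr19:5447698-5455938, Fos at chr12:85473890-85477274, Jun at chr4:95049036-95052222, Junb at chr8:84976909-84978748 and Atf3 at chr1:191170296-191183333. The others are Egr1 at chr18:34861207-34864956, Ier3 at chr17:35821713-35822911, Myc at chr15:61985341-61990361, Dusp1 at chr17:26505591-26508472 and Dusp5 at chr19:53529145-53541809. The tissue was Reissner's membrane of adult mice, the thin sheet between the scala media and the scala vestibuli of the cochlea. It was dissected by hand, pooled, and measured on 9 Affymetrix expression arrays in 3 groups of 3, lettered A to C. Dexamethasone arrays held RNA of explants kept for 24 h with the synthetic glucocorticoid dexamethasone at 100 nM, incubated arrays that of explants kept for 24 h without it, and fresh arrays that of tissue extracted at 0 h. On dexamethasone arrays B and C the dose is typed in mM, while 100 nM stands in the label of array A and in the design text. The sources used here give neither strain nor sex, and the labels state that cells did not proliferate in the explants. The design text describes 3 chips for each pooled biological sample, so the spread behind every p-value is that of arrays and may be technical only.

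AP-1 is a dimer of a Jun protein with another Jun protein, a Fos protein or a protein of the ATF family, and binds TPA response elements or cyclic AMP response elements in DNA. Immediate early genes are transcribed within minutes of a growth factor, stress or wound signal, mostly through MAP kinases and without new protein synthesis, and their transcripts are usually short-lived. MAP kinase phosphatases remove the activating phosphates from ERK, JNK or p38 and so close a negative feedback loop. Dusp1 is also a textbook target that the glucocorticoid receptor switches on, and the same receptor is known to interfere with AP-1 activity at the protein level.

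Values are array signals on a linear scale, which the authors had scaled to a common target on each array. No detection calls were used, so 200 was taken as the floor of reliable signal, and a probe set was tested where at least 3 of the 9 arrays reached it. Changes are differences of group means of log2(signal + 32) ± SE from a single limma model of all 18913 tested probe sets (3 arrays a group), and a gene was called at a Benjamini-Hochberg adjusted p under 0.05. Addition of 32 understates the change of weak signals. If a group had no array at 200 or more, the change is given as at least the other group's mean over 200. With 3 arrays a group, their number limits the precision throughout. Arrays of the same group correlated at 0.992 to 0.993 (Pearson's r across probe sets, log2 signals).

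Cell type markers moved between the groups as well. All 7 epithelial markers (Krt8, Krt18, Krt19, Epcam, Cdh1, Cldn4 and Cldn7) reached a mean of 200 in every group, and their summed signal was 81452 to 85399 in dexamethasone arrays, 70645 to 72723 in incubated arrays and 28974 to 30207 in fresh arrays. The 7 neuron markers all fell on incubation, with sums of 196 to 266 in dexamethasone arrays, 166 to 205 in incubated arrays and 23904 to 25001 in fresh arrays. All 5 fibrocyte markers (spiral ligament and limbus) fell too, with sums of 1421 to 1579 in dexamethasone arrays, 1424 to 1550.1 in incubated arrays and 56834 to 58543 in fresh arrays, as did all 4 strial marginal, all 4 supporting cell and 4 of 4 measured neutrophil markers. Of 7 macrophage markers tested out of 10, 3 rose and 3 fell on incubation, and the sum of the 10 was 6488 to 6521 in dexamethasone arrays, 5245 to 5412 in incubated arrays and 5395 to 5706 in fresh arrays. Mesothelial and fibroblast markers gave 1 rise and 5 falls of 6 tested, Schwann cell markers 1 rise and 2 falls of 3, and the single endothelial marker tested fell. Among all genes tested, 36% rose and 40.7% fell on incubation. The neuron markers averaged under 200 in both cultured groups, so they were tested only through the fresh arrays and had to fall. The same held for Otor (fibrocytes), Kcne1 (strial), Mpo and Elane (neutrophils), Sox2 (supporting cells), and Lum, Col1a1 and Thy1 (mesothelial and fibroblast). Conversely, Msln (mesothelial) and Cd68 (macrophages) averaged under 200 in fresh tissue and had to rise. Adgre1 (macrophages) also averaged under 200 there, at 194, with 551 in incubated and 284 in dexamethasone arrays. With dexamethasone against incubated tissue, 6 epithelial markers rose and 1 fell, 4 macrophage markers rose and 2 fell, and 3 of 4 neutrophil markers fell, with summed signals of 96.7 to 188 in dexamethasone and 2479 to 2552 in incubated arrays. Supporting cell markers rose in 4 of 4 cases, fibrocyte markers rose in 3 of 5 with 1 fall, mesothelial and fibroblast markers gave 2 rises and 2 falls, strial markers 2 falls, neuron markers 1 rise and 1 fall, Schwann cell markers 2 rises and the endothelial marker 1 rise. Of all genes tested, 22.3% rose and 28.7% fell in that comparison. Among these dexamethasone calls on markers, those of Sox2 (supporting cells), Otor (fibrocytes), Lum and Thy1 (mesothelial cells and fibroblasts), Mpo (neutrophils) and both neuron markers came from signals under 200 in both groups, and no direction is read from them. No marker was listed at 0. The part of these shifts in the results below was not tested, and in such bulk tissue a larger number of cells of a type and more RNA per cell cannot be told apart.

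Most of the 10 genes were higher after a day in culture, and none was called lower with dexamethasone at the deposited scaling. In incubated against fresh tissue 9 of the 10 rose, among 36% of the 10242 genes tested that rose. None fell by limma, neither at an adjusted nor at an unadjusted p under 0.05, while 40.7% of all genes fell. The 9 rises were all at least 2-fold, a size that 7.25% of all genes reached upward, and their arrays did not overlap between the groups, as for 36.7% of all genes. The median change of the 10 was 2.62, against -0.039 for all genes tested, and it was 2.41 with the genes under the floor at their bound. These counts are no independent support, since Fosl1, Atf3, Myc and Dusp5 lay under 200 on all 3 fresh arrays and were tested only through the cultured arrays, so that they had to be higher there.

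In dexamethasone against incubated tissue 8 of the 10 rose, among 22.3% of all genes, and none fell by limma at an adjusted or unadjusted p under 0.05, while 28.7% of all genes fell. The 8 rises were smaller than those of culture, with a median of 0.55 over the 10 against -0.030 over all genes. Only Dusp5 rose at least 2-fold, a size that 1.77% of all genes reached upward and 1.5% downward. The dexamethasone and incubated arrays did not overlap for these 8, as for 25.5% of all genes upward. In dexamethasone against fresh tissue all 10 were higher and none lower, among 35.4% of all genes higher and 42.7% lower, and 9 of them were at least 2-fold higher, as were 8.04% of all genes. These counts against fresh tissue are no independent support either, since Fosl1, Atf3, Myc and Dusp5 were tested only through the cultured arrays. 7 genes (Fosl1, Jun, Junb, Atf3, Ier3, Myc and Dusp5) had the order dexamethasone, incubated, fresh from high to low with both steps called. Fos and Egr1 passed the test only at the step to fresh tissue, and Dusp1 only at the step between dexamethasone and incubated tissue. The dexamethasone step depended on how arrays were scaled. When arrays were scaled to their spiked hybridization controls instead, the median change of all genes moved to -0.33, and 9.70% of called genes were higher instead of 43.7%. Jun, Myc, Dusp1 and Dusp5 were still called higher, Fosl1, Junb and Atf3 no longer passed, Ier3 turned to -0.056, and Fos (-0.41, adjusted p = 0.00211) and Egr1 (-0.44, adjusted p = 1.28e-04) were called lower. All rises on incubation held under that scaling, where the median of all genes was 0.33 and 71.4% of called genes were higher instead of 46.9%.

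**Figure D1:**
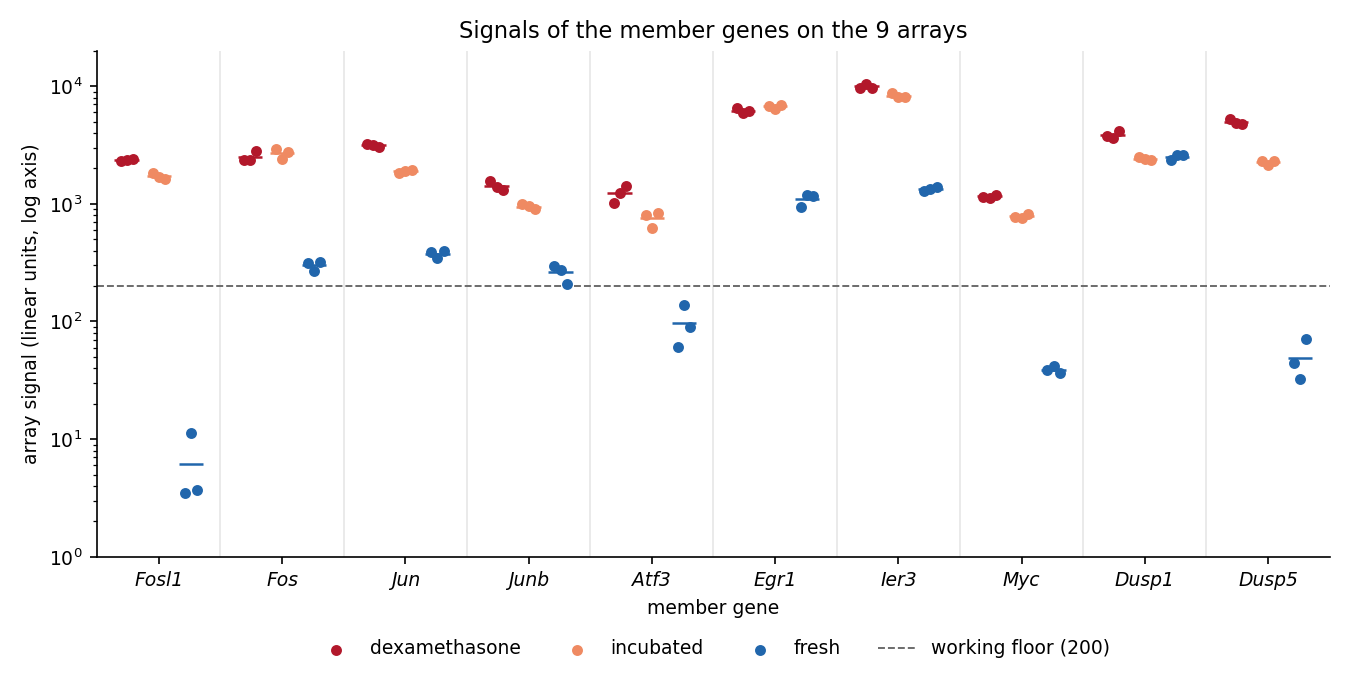
Signal of each member gene's representative probe set (log axis) on every array, with dexamethasone, incubated and fresh arrays from left to right; points are the 3 arrays of a group, short lines their mean and the dashed line the floor of 200. All dexamethasone and incubated arrays lie above the fresh arrays for every gene but Dusp1, whose incubated and fresh arrays overlap, and the fresh arrays of Fosl1, Atf3, Myc and Dusp5 lie under the floor.

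Among the Fos proteins, which need a Jun partner to bind DNA, Fosl1 was below the floor in fresh tissue and Fos above it, and both rose in culture. Fosl1 (Fra-1), which lacks the transactivation domain of Fos, had signals of 2313, 2356 and 2400.3 in dexamethasone arrays, 1819.5, 1702 and 1634 in incubated arrays and 3.50, 11.3 and 3.70 in fresh arrays. Every cultured array was far above the floor and every fresh array far below it, so the rise on incubation was at least 8.59-fold (adjusted p = 1.08e-13) and that of dexamethasone against fresh tissue at least 11.8-fold (adjusted p = 3.18e-14). Dexamethasone arrays were all above incubated arrays, with a ratio of mean signals of 1.37 and a log2 change of 0.45 ± 0.090 (adjusted p = 0.00117). This call ended with a pseudocount of 1 (adjusted p = 0.206), in a fit whose spread is shared by all groups, the fresh arrays near 0 included.

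Fos, the founding member of the family and a classical marker of recent stimulation, had signals of 2339.7, 2352 and 2835 in dexamethasone arrays, 2936, 2384 and 2763 in incubated arrays and 312, 268 and 318 in fresh arrays. The cultured arrays lay 8.39-fold (dexamethasone) and 9.01-fold (incubated) above the fresh mean, and the dexamethasone and incubated arrays overlapped. The log2 change on incubation was 3.04 ± 0.095 (adjusted p = 2.51e-11), and between dexamethasone and incubated tissue it was -0.10 ± 0.095 (adjusted p = 0.391), with a 95% interval of -0.31 to 0.11. Fos was therefore high at the end of 24 h, and no dexamethasone step was called at the deposited scaling. The interval reflects the spread of arrays, which may be technical only, so it does not bound a difference between biological samples. Among the 9042 genes measured above the floor in both groups, the rise of Fos on incubation ranked 15.

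Of the Jun proteins, Jun is the strong activator and Junb a weaker one that can restrain it. Jun had signals of 3199, 3162 and 3038 in dexamethasone arrays, 1829.7, 1894 and 1943 in incubated arrays and 387, 349.6 and 398 in fresh arrays on its brighter probe set, 1417409_at. The 3 groups did not overlap and stepped up in both comparisons, with log2 changes of 2.23 ± 0.060 for incubated against fresh (adjusted p = 6.65e-12) and 0.72 ± 0.060 for dexamethasone against incubated tissue (adjusted p = 1.25e-06). A second probe set of Jun, 1448694_at, read 1579, 1571 and 1543 in dexamethasone arrays, 1558, 1464 and 1622 in incubated arrays and 608, 535 and 545 in fresh arrays. It showed the rise on incubation (1.41 ± 0.065, adjusted p = 8.01e-10) but not the dexamethasone step (0.016 ± 0.065, adjusted p = 0.855), with a 95% interval of -0.12 to 0.16 that excludes the value of the first. The dexamethasone rise of Jun thus rests on 1 of its 2 probe sets, and which transcript ends they detect is not given in the sources used here.

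Junb had signals of 1557, 1397 and 1309.7 in dexamethasone arrays, 989, 954 and 897 in incubated arrays and 299, 275 and 210.3 in fresh arrays. Its groups were separate as well, and all 3 fresh arrays reached the floor, the lowest with 210.3. Junb changed by 1.75 ± 0.11 on incubation (adjusted p = 1.17e-08) and by 0.57 ± 0.11 with dexamethasone against incubated tissue (adjusted p = 7.97e-04). Atf3, a stress-induced partner of Jun proteins that can also repress transcription as a homodimer, read 1016, 1245 and 1412 in dexamethasone arrays, 804, 622 and 833 in incubated arrays and 60.9, 138 and 90.4 in fresh arrays. Its arrays scattered most among the members with dexamethasone, with a coefficient of variation of 16.2%, but the 3 groups still did not overlap. Atf3 rose at least 3.76-fold on incubation (adjusted p = 5.52e-08), and its step between dexamethasone and incubated tissue was 0.68 ± 0.19 (adjusted p = 0.0103).

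**Figure D2:**
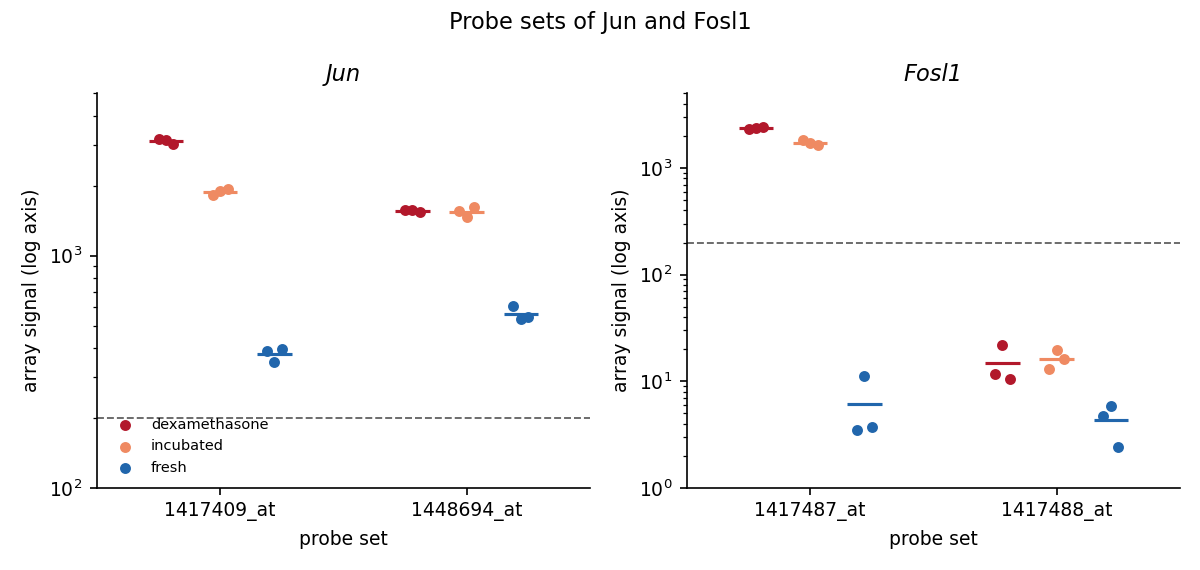
Signals (log axis) on the 9 arrays for the probe sets of Jun (left) and Fosl1 (right), dexamethasone, incubated and fresh arrays from left to right within each probe set; points are arrays, short lines group means and the dashed line the floor of 200. The dexamethasone arrays of Jun stand above the incubated ones on 1417409_at alone, and Fosl1 probe set 1417488_at stays below the floor on every array.

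The second probe set of Fosl1, 1417488_at, gave 11.7, 21.9 and 10.6 in dexamethasone arrays, 12.9, 19.7 and 16.2 in incubated arrays and 4.70, 5.80 and 2.40 in fresh arrays. All 9 values lay below the floor, so it was not tested, and no direction is read from it. Both probe sets cite the same transcript record in the array annotation.

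Promoter sequences were examined because most members rose together, and RefSeq entries (GRCm38.p6) were at hand for 7 of the 10, with none used here for Fosl1, Egr1 and Myc. Fos and Jun are shown first because both rose in culture while dexamethasone arrays stood above incubated arrays for Jun only, on 1 probe set. Each line gives the 250 bases before the annotated start, 5′ to 3′ on the gene's own strand, for Fos at chr12:85473640-85473889 on the plus strand and for Jun at chr4:95052223-95052472 on the minus strand. Capitals mark the core TGACG of the cyclic AMP response element in Fos and the variant TPA response element TGACATCA in Jun.
Fos: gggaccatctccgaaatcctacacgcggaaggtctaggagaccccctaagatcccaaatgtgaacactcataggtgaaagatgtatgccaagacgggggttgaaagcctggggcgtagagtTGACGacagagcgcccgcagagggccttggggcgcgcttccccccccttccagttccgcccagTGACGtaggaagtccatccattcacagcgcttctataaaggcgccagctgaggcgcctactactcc
Jun: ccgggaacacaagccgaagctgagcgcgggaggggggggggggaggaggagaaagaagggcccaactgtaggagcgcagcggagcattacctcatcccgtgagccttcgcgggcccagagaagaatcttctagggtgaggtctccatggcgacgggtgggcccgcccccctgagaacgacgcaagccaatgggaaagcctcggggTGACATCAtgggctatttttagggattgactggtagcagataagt
Fos held TGACG at 129 to 125 and again at 66 to 62 bases before the start, and the Jun variant lay 45 to 38 bases before it. Searched on both strands over all 32851 RefSeq windows of this length, TGACG occurred in 17.8% and TGACATCA in 2.93% of windows. Fos, Junb, Atf3, Dusp1 and Dusp5 held TGACG, that is 5 of the 7 members. The 7 windows had 54.4 to 68.4% G and C, against a median of 52.4% over all windows, and shares at like content were not tested. TGACG is part of the full element TGACGTCA, so the matches of the longer motif count under the shorter one. The canonical TPA response element TGACTCA and the Egr motif GCGNGGGCG were not in any of the 7 windows, and occurred in 4.46% and 4.70% of all windows.

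Egr1, a zinc finger transcription factor induced through ERK and serum response factor, had signals of 6544, 5906 and 6108 in dexamethasone arrays, 6785, 6443 and 6940.4 in incubated arrays and 945, 1180.1 and 1172 in fresh arrays. All cultured arrays lay above all fresh arrays, and dexamethasone and incubated arrays overlapped. Egr1 changed by 2.58 ± 0.077 on incubation (adjusted p = 1.57e-11) and by -0.12 ± 0.077 with dexamethasone against incubated tissue (adjusted p = 0.208, 95% interval -0.29 to 0.047). Its fresh mean of 1099 ± 133 (SD, n = 3) was itself well above the floor. Egr1 and Fos were the 2 members with no called difference between dexamethasone and incubated tissue.

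Ier3, which encodes a small protein that modulates cell survival and ERK activity, had signals of 9632, 10476 and 9722 in dexamethasone arrays, 8692, 8135 and 8076 in incubated arrays and 1289, 1349.7 and 1395 in fresh arrays. The groups did not overlap, and the step on incubation (2.60 ± 0.052, adjusted p = 5.64e-13) was far larger than the dexamethasone step (0.26 ± 0.052, adjusted p = 0.00113), which was the smallest among the 8 called at the deposited scaling. Myc, a transcription factor of growth and ribosome production, read 1148, 1129 and 1196 in dexamethasone arrays, 769, 765 and 825 in incubated arrays and 38.5, 41.5 and 36.2 in fresh arrays. Its fresh arrays all lay near 38.7, and incubated arrays were at least 3.93-fold (adjusted p = 1.76e-12) and dexamethasone arrays at least 5.79-fold (adjusted p = 3.64e-13) higher. Between dexamethasone and incubated tissue Myc changed by 0.54 ± 0.081 (adjusted p = 1.40e-04), with mean signals in a ratio of 1.47.

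The 2 phosphatase genes had different patterns of calls, and the difference between them was not tested. Dusp1 (MKP-1), a nuclear phosphatase of p38, JNK and ERK, had signals of 3807, 3597 and 4126 in dexamethasone arrays, 2498, 2395 and 2345 in incubated arrays and 2348, 2622 and 2589 in fresh arrays. Incubated and fresh arrays overlapped, and only the dexamethasone arrays stood above the rest. Dusp1 changed by -0.061 ± 0.062 on incubation (adjusted p = 0.386, 95% interval -0.19 to 0.073), by 0.66 ± 0.062 with dexamethasone against incubated tissue (adjusted p = 2.98e-06) and by 0.60 ± 0.062 with dexamethasone against fresh tissue (adjusted p = 1.36e-06). Scaled to the hybridization controls, the incubation value of Dusp1 turned to 0.32 (adjusted p = 1.40e-04), close to the shift of all genes given above.

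Dusp5, a nuclear phosphatase that acts on ERK alone, had signals of 5298, 4825 and 4736 in dexamethasone arrays, 2325, 2133 and 2329 in incubated arrays and 44.1, 32.6 and 71.4 in fresh arrays. The 3 groups were widely separate, and the fresh arrays lay under the floor. Dusp5 was at least 11.3-fold higher in incubated (adjusted p = 6.65e-12) and at least 24.8-fold higher in dexamethasone (adjusted p = 8.41e-13) than in fresh tissue. Its dexamethasone step of 1.12 ± 0.13 (adjusted p = 1.89e-05), a ratio of mean signals of 2.19, was the largest of the 10 members and ranked 56 among the 9079 genes measured above the floor in both groups.

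The promoters of the 2 phosphatase genes are shown because their patterns of calls differed, Dusp1 at chr17:26508473-26508722 on the minus strand and Dusp5 at chr19:53528895-53529144 on the plus strand (GRCm38.p6, 250 bases before the start). Capitals mark cyclic AMP response elements, whole or only their core TGACG, in both genes, the E-box CACGTG in Dusp1 and a pair of adjoining CArG boxes, the binding motif of serum response factor, in Dusp5.
Dusp1: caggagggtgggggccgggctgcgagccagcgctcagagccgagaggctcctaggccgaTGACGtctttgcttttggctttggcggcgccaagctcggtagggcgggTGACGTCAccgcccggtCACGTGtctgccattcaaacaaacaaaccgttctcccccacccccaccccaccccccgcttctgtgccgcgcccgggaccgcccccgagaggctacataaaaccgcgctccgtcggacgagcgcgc
Dusp5: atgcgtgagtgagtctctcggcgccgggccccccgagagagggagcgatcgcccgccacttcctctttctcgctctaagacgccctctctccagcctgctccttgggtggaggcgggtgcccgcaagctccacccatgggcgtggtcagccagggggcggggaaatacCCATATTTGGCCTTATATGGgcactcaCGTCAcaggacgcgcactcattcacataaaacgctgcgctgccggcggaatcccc
Dusp1 held the full element TGACGTCA at 143 to 136 bases before the start, a motif in 1.55% of all windows, and CACGTG at 126 to 121, which 6.02% of windows held. Dusp5 held CArG boxes at 82 to 73 and 72 to 63 bases before the start, a motif in 1.47% of all windows, and no other of the 7 members had one there. A match is a description of the letters in this window and says nothing of binding. The transcript of serum response factor itself, Srf, was higher with dexamethasone against incubated tissue (0.87 ± 0.065, adjusted p = 5.10e-07). Its signal averaged 2010 in dexamethasone, 1084 in incubated and 1000 in fresh arrays, and a link between Srf and Dusp5 was not tested.

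**Figure D3:**
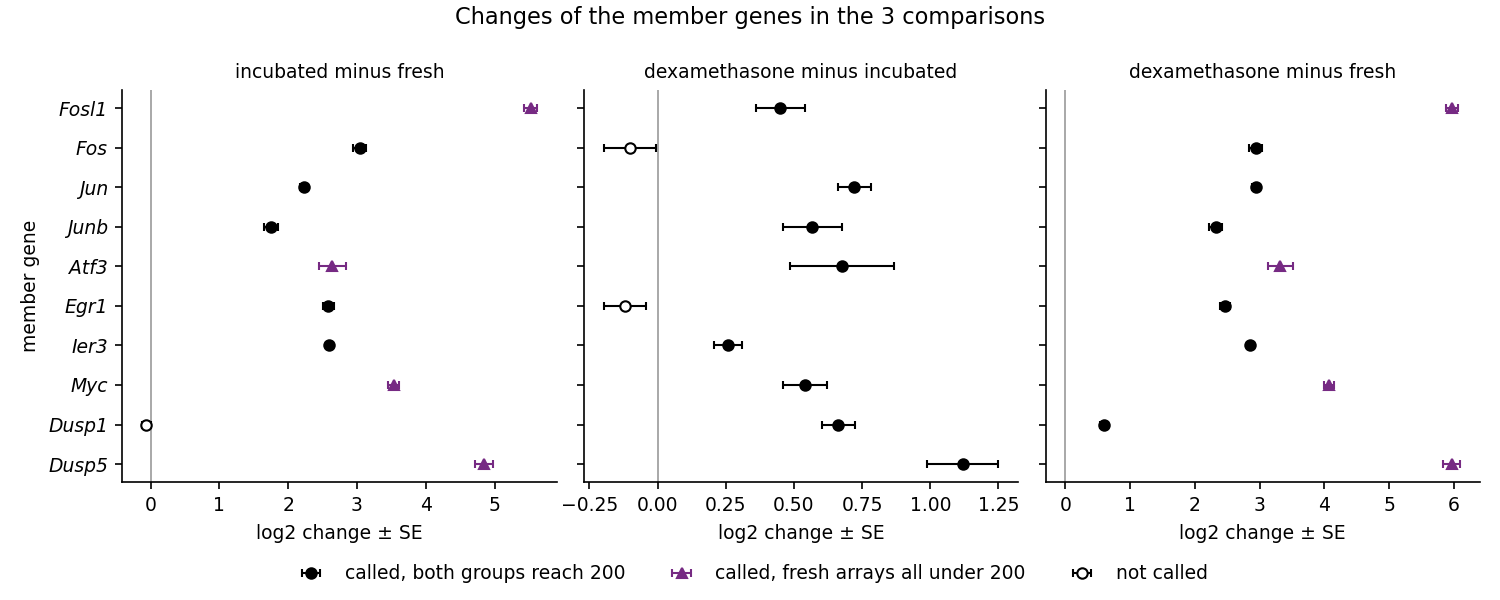
Change of each member (log2, with SE) for incubated minus fresh, dexamethasone minus incubated and dexamethasone minus fresh tissue; filled symbols passed the test, open ones did not, and triangles mark genes whose fresh arrays all lay under 200, for which the point is no bound. Dusp1 sits near 0 in the first comparison and above 0 in the others, whereas Fos and Egr1 sit slightly below 0 in the second only. The 3 horizontal scales differ.

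The other genes of the AP-1 family gave a mixed picture on incubation and rises with dexamethasone. Of 8 measured out of 14, 5 rose and 2 fell on incubation, with a median of 0.71. Among all genes tested, 36% rose and 40.7% fell on incubation, and 22.3% rose and 28.7% fell with dexamethasone against incubated tissue. A list gene under the floor on all fresh arrays, such as Maff, was tested only through cultured arrays, like the members named above. Maff, a small Maf protein that dimerises with larger partners, rose at least 6.88-fold, and Fosl2 (2.24 ± 0.090), Mafg (0.88 ± 0.071), Mafk (0.71 ± 0.091) and Jund (0.71 ± 0.093) rose too (adjusted p at most 1.47e-05). Maf fell by 3.10 ± 0.076 and Atf2, a partner of Jun, by 0.38 ± 0.049 (adjusted p at most 1.36e-05), and Jdp2 did not pass the test. With dexamethasone against incubated tissue 6 of the 8 rose and none fell, at an adjusted or unadjusted p under 0.05 by limma. These were Maff (0.87 ± 0.098), Mafk (0.59 ± 0.091), Fosl2 (0.56 ± 0.090), Jdp2 (0.51 ± 0.079), a repressor of AP-1, Mafg (0.47 ± 0.071) and Maf (0.27 ± 0.076) (adjusted p at most 0.0102). Scaled to the hybridization controls, 2 of the 8 were called higher and 1 lower, and the Maf value turned to -0.012. The Maf call also ended with quantile normalization (adjusted p = 0.0936) and with averaged probe sets (adjusted p = 0.193).

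Other brakes of the MAP kinase pathways moved in both directions. For all genes the shares were 36% up and 40.7% down on incubation, and 22.3% up and 28.7% down with dexamethasone. Of 6 further typical MAP kinase phosphatases measured out of 8, 4 rose and 1 fell on incubation. Dusp4, a nuclear phosphatase of ERK and JNK, rose most (1.73 ± 0.096), beside Dusp10 (at least 1.26-fold), Dusp6 (0.91 ± 0.13), an ERK phosphatase of the cytoplasm, and Dusp8 (0.53 ± 0.14), while Dusp16 fell by 0.44 ± 0.058 (adjusted p at most 0.00373) and Dusp7 did not pass. Under dexamethasone, relative to incubated tissue, Dusp10 (0.78 ± 0.11), Dusp7 (0.70 ± 0.086) and Dusp8 (0.61 ± 0.14) rose and Dusp4 fell by 0.71 ± 0.096 (adjusted p at most 0.00240). Dusp16 (-0.15 ± 0.058, adjusted p = 0.0458) was also called lower, a call that ended without dexamethasone array A or B or without any of the 3 incubated arrays (adjusted p = 0.0549 to 0.186). Of 5 Sprouty, Spred and Mig6 feedback inhibitors measured out of 8, 1 rose (Spred2, 0.56 ± 0.056) and 1 fell (Spry1, -0.48 ± 0.13) on incubation (adjusted p at most 0.00495). 3 rose with dexamethasone, Errfi1 (0.35 ± 0.043), Spry2 (0.24 ± 0.050) and Spry1 (0.38 ± 0.13) (adjusted p at most 0.0257). The last call ended without dexamethasone array B or C or incubated array B or C (adjusted p = 0.0525 to 0.112), and under hybridization-control scaling none of the 3 was called higher and 2 of the 5 were called lower. That scaling also ended the incubation calls of Dusp16 (adjusted p = 0.306) and Spry1 (adjusted p = 0.467).

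The kinases of these pathways and the Ras genes also moved in both directions, as did all genes (36% up and 40.7% down on incubation). With dexamethasone against incubated tissue 22.3% of all genes rose and 28.7% fell. Of 15 MAP kinase cascade and Ras genes measured out of 22, 7 rose and 4 fell on incubation, with a median of 0.14. Mapk13, a p38 isoform, rose (2.17 ± 0.088) with Nras (1.16 ± 0.063), while Map2k6, an upstream kinase of p38, fell at least 4.20-fold and Map3k5, which activates JNK and p38, fell by 0.74 ± 0.055 (adjusted p at most 6.47e-08). In the dexamethasone comparison 3 rose and 3 fell, including Map2k3 (0.40 ± 0.085) and Map3k8 (0.53 ± 0.12) upward and the p38 gene Mapk14 (-0.23 ± 0.054) and the ERK kinase gene Map2k1 (-0.40 ± 0.095) downward (adjusted p at most 0.00385). The call of Map2k6, 1 of the 3 falls, lay under the floor in both groups. The Mapk14 value turned to 0.31 when all its probe sets were averaged, and under hybridization-control scaling no kinase was called higher and 11 were called lower.

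Other immediate early genes and known AP-1 targets were set beside the members. Of all genes tested, 36% rose and 40.7% fell on incubation. With dexamethasone against incubated tissue 22.3% of all genes rose and 28.7% fell. Of 31 further immediate early genes measured out of 35, 25 rose and 3 fell on incubation (median 0.77, or 0.72 with bounds for genes under the floor), including Ccn1, a matricellular protein (3.56 ± 0.11), Zfp36l2, an RNA-decay factor (1.81 ± 0.074), Gadd45b (1.36 ± 0.064) and Klf6 (1.32 ± 0.067) (adjusted p at most 2.03e-09). Of the 25 rises 1, that of Plk3, lay under the floor in both groups. With dexamethasone against incubated tissue 16 rose and 7 fell (median 0.39, or 0.35 with bounds): besides Srf, Ccn2 (0.62 ± 0.049) and Gadd45b (0.79 ± 0.064) rose and Phlda1 fell by 0.80 ± 0.065 (adjusted p at most 9.94e-07). With hybridization-control scaling these dexamethasone counts were 10 and 13. Of 9 known AP-1 targets measured out of 16, 7 rose and 2 fell on incubation (median 2.78, or 1.22 with genes under the floor at their bound), with Ccl2 (at least 11.4-fold), Timp1 (at least 15.7-fold), Plaur (at least 5.05-fold) and Hbegf (2.80 ± 0.063) higher (adjusted p at most 7.42e-12). Ccl2, Timp1, Plaur and Hmox1 lay under the floor in fresh tissue and were tested only through the cultured arrays, so they had to be higher there. Set against incubated tissue, 4 of the 9 fell with dexamethasone and 1 rose: the chemokine gene Ccl2 changed by -1.27 ± 0.12, the metalloproteinase inhibitor gene Timp1 by -0.89 ± 0.11 and the growth factor gene Hbegf by 0.36 ± 0.063 (adjusted p at most 4.10e-04). Vegfa, a growth factor of blood vessels, changed by -0.39 ± 0.11 (adjusted p = 0.0108), a call that ended without incubated array B (adjusted p = 0.0511) and with averaged probe sets (adjusted p = 0.245), and without dexamethasone array C 2 targets were called higher. The metalloproteinase gene Mmp9 averaged 5.67 in dexamethasone and 145 in incubated arrays, both under the floor, so no fold is given for it and its call, 1 of the 4 falls, rests on signals too weak to rely on. A difference between the targets and the AP-1 genes in their dexamethasone response was not tested, and the Hbegf call ended under hybridization-control scaling.

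The partners and targets of Myc were also read. Beside their counts stand 36% of all genes that rose and 40.7% that fell on incubation. In dexamethasone against incubated tissue these shares were 22.3% and 28.7%. All 13 measured of 14 known Myc targets rose on incubation (median 0.99). Those with the smallest adjusted p were the polyamine enzyme gene Srm (2.06 ± 0.070) and the nucleolar genes Fbl (1.44 ± 0.066), Nop56 (0.99 ± 0.053) and Ncl (0.83 ± 0.048) (adjusted p at most 6.46e-09). With dexamethasone against incubated tissue 3 rose and 3 fell (median 0.051). Npm1 (-0.25 ± 0.042), Nop58 (-0.52 ± 0.099) and Cdk4 (-0.31 ± 0.067) fell (adjusted p at most 0.00203). Nolc1 was called higher, with mean signals of 1490 in dexamethasone and 1310 in incubated arrays. Only 1 target rose without any one of dexamethasone arrays A, B and C or incubated array B. Of 8 Myc partner network genes measured out of 11, 2 rose and 6 fell on incubation. The falls included Mxi1 (-1.59 ± 0.061) and Mxd4 (-1.18 ± 0.059), which compete with Myc for its partner Max, and Mga (-1.10 ± 0.080) (adjusted p at most 5.87e-08). Only 1 rise was called without incubated array B or C or fresh array A. With dexamethasone 3 rose and 3 fell, Mga upward (0.59 ± 0.080) and Mxd4 (-0.89 ± 0.059) and Max (at least 1.62-fold) downward (adjusted p at most 9.79e-05). Mlxip was called lower on incubation and higher with dexamethasone. Its signal averaged 877 in dexamethasone, 705 in incubated and 1042 in fresh arrays. Of 12 known glucocorticoid receptor targets, 11 rose with dexamethasone against incubated tissue, as did 22.3% of all genes. This list was chosen with earlier results of these data known, so the count is no independent check on the treatment. The targets with the smallest adjusted p were Zbtb16 (3.22 ± 0.073), Sult1a1 (at least 2.56-fold), Cebpd (1.17 ± 0.049) and Fkbp5 (1.99 ± 0.10) (adjusted p at most 2.30e-08). On incubation 1 of them rose (2 without incubated array B) and 7 fell, and the single dexamethasone fall was Sgk1, named after its value was seen, a call that ended without dexamethasone array A or B or incubated array A.

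**Figure D4:**
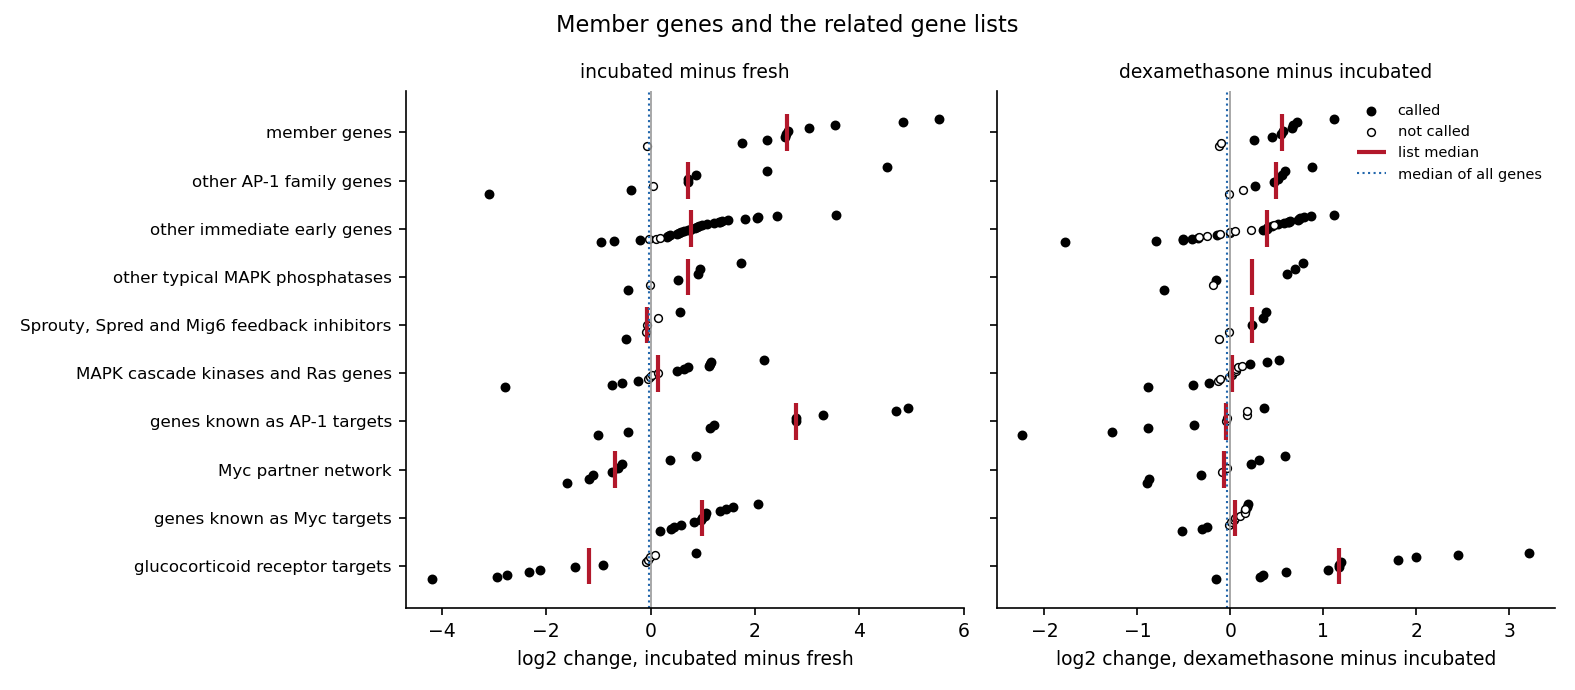
Log2 change of every measured gene in the member set and 9 related lists, for incubated minus fresh (left) and dexamethasone minus incubated tissue (right); filled points passed the test, open points did not, thick bars are list medians and the dotted line is the median of all genes tested. Members lie right of 0 except Dusp1 in the left panel and Fos and Egr1 in the right panel. Of the 9 known AP-1 targets, 7 lie right of 0 in the left panel, and 4 called ones lie left of 0 in the right panel.

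Across the 9 arrays, 3 shapes of profile were compared with those of 10078 genes outside the lists, by the Euclidean distance of log2(signal + 32) from the mean of the fresh arrays. The nearest genes to Fosl1 were Anxa3 (1.40), Ifi202b (1.51) and Lgals3 (1.87), which encode an annexin, an interferon-inducible protein and a galectin, with the distance in brackets. Nearest to Fos were Csf1 (0.44), Chrnb1 (0.52) and Morc4 (0.60). Nearest to Dusp1 were Pawr (0.19), Brd2 (0.24) and Slc6a8 (0.26). Of these, Csf1 encodes a macrophage growth factor and stood at 2.83 in dexamethasone and 2.93 in incubated tissue relative to fresh tissue. Brd2, which encodes a chromatin reader, stood at 0.57 and -0.058 in the same order. Distances to Fosl1 depend on the constant added, because its fresh signals were close to 0.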

How the data were processed

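The authors deposited an intensity for each probe set and array on a linear scale, which they had scaled over all probe sets to a target of 500, per the labels' description. Per the labels' protocols, small-sample amplification with 2 transcription rounds preceded hybridization, a step that favours transcript 3′ ends. The summarising software is not given in the sources used here. Of 45101 probe sets, 64 were controls, 34945 had 1 gene symbol, 932 several and 9160 none. Symbols were updated through gene IDs of RefSeq. Probe sets with a signal of 200 or more on at least 3 arrays were tested (18913, covering 10242 genes), on log2(signal + 32), with limma 3.58.1 (R 4.3.3): 1 mean per group over all 9 arrays, eBayes with an intensity trend and Benjamini-Hochberg adjustment over the 18913. For a gene with several tested probe sets, the one brightest on average stood for it. The fit was run on simulated data with independent normal noise of the arrays' own spread and added changes of known size. Such data hold no difference in scaling or between biological samples, so the run does not address these. Members and gene lists were chosen with earlier results of these data known, so no count over them is independent evidence.

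Named were all members, every called gene of the AP-1 and phosphatase lists, and otherwise up to 4 genes per list with the smallest adjusted p and a group mean of at least 200. Probe sets ending in _s_at or _x_at, which may detect related transcripts, stood for Atf2, Ccn1, Cdk4, Dusp7, Fbl, Nop56 and Srf. Alternatives were other scalings, pseudocounts, floors, spread estimates, a replicate block, averaged probe sets and each array left out. Those for the other lists were added after seeing the data. Figures were drawn with matplotlib 3.10.9 in Python 3.11.15.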

Additional observations from a re-analysis of the deposited data

How the results depend on the processing

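Of 480 alternative values of member changes over the 3 comparisons, 472 kept their direction and their side of the threshold. The exceptions came from 2 alternatives. Scaling to the hybridization controls left 4 members called higher and 2 called lower for dexamethasone against incubated tissue, instead of 8 and 0, with Fosl1 at 0.14, Junb at 0.26 and Atf3 at 0.37 no longer called, Fos and Egr1 called lower as given above, and the sign of Ier3 (-0.056) turned. It also turned Dusp1 (0.32), called higher, and Atf2 (0.0019) on incubation, and Maf (-0.012), Mlxip (-0.00094), Nolc1 (-0.13) and Spry2 (-0.074) with dexamethasone. These values follow its construction, since it moves all genes of an array alike, and which scaling is closer to the amount of RNA in the tissue was not tested. A pseudocount of 1 ended the dexamethasone call of Fosl1, while its change was 0.46 beside 0.45 in the main fit. The spread in that test is shared by all groups, and the fresh arrays of Fosl1 (3.50, 11.3 and 3.70) enter it. Averaging the probe sets of Mapk14 turned its sign (0.31). The cause was not tested for either gene. With quantile normalization, a pseudocount of 100, no filter, a floor of 400, no trend, the 2 compared groups alone, averaged probe sets or any array left out, the member counts stayed at 9, 8 and 10 higher and 0 lower. The replicate block, with the array letters as the block, gave the same 9, 8 and 10. The letters share only a name, since deviations of same-lettered arrays correlated at -0.062 to 0.16 across groups. For list genes named in the text, 1174 of 1214 alternative values kept direction and call. Beside the scaling and left-out arrays, the dexamethasone call of Dusp16 ended with quantile normalization (0.112), no filter (0.0807), no trend (0.0836), 2 groups alone (0.0578) and the replicate block (0.0574), and that of Spry1 with no filter (0.0532) and no trend (0.0537), with adjusted p in brackets. Averaged probe sets ended those of Maf, Vegfa and Nolc1, and quantile normalization that of Maf. List counts moved by at most 2 genes when arrays were left out. Without detection calls, the floor of 200 limits what can be said of weak signals.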

Other observations

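Several classical immediate early genes stayed under the floor of 200 in all 3 groups, although Fos and Egr1 did not. Fosb averaged 46.9 in dexamethasone, 50.2 in incubated and 19.4 in fresh arrays, and Arc averaged 64.0, 23.7 and 14.3 in the same order. Egr4 (9.30, 9.27 and 12.9) and Nr4a3 (30.2, 37.0 and 59.9) lay there too, as did the phosphatase genes Dusp2 (59.9, 43.9 and 48.6) and Dusp9 (28.3, 56.0 and 14.3). No fold is given for these genes, which were chosen after their values were seen.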
